A study of Mus musculus with 15 samples.

Results

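*Hox* genes encode homeodomain transcription factors that give cells along the head-to-tail axis of the embryo their positional identity. The genes examined were the protein-coding genes whose symbol is Hoxa, Hoxb, Hoxc or Hoxd followed by a number, which gave 39 of the 55536 annotated genes. They lie in 4 clusters: 11 *Hoxa* genes (chr6), 10 *Hoxb* genes (chr11:96194316-96368256), 9 *Hoxc* genes (chr15:102921103-103036852) and 9 *Hoxd* genes (chr2:74668310-74765142, mm10). The order of the genes along a chromosome follows the order of their expression along the body axis, and genes with the same number in different clusters are paralogs descended from a common ancestor. In pluripotent cells most *Hox* promoters are held silent by polycomb complexes, and retinoic acid, Wnt and Fgf signals open the clusters in the caudal embryo. Mouse primordial germ cells (PGCs) arise beside that caudal tissue, and shutting down its somatic program, *Hox* genes included, is a known part of their specification. Paralog groups 1 to 3 are called anterior here (8 genes), groups 4 to 8 central (15 genes) and groups 9 to 13 posterior (16 genes).

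The study followed mouse embryonic stem cells (ESCs) through epiblast-like cells (EpiLCs) into PGC-like cells (PGCLCs) that were induced by forced expression of germ cell transcription factors, without added cytokines. RNA-seq libraries came from 3 samples of each of 5 groups. All cells derived from a male ESC line that carries a *Stella*-eGFP reporter and doxycycline-inducible transgenes for *Prdm1*, *Prdm14*, *Nanog* (piggyBac) and *Tfap2c* (lentivirus), selected as clones, so no group lacks the transgenes. ESCs were kept naive in MEK and GSK3 inhibitors with LIF (2i plus LIF) on a laminin coating, whereas routine culture of the line used a fibroblast feeder layer. EpiLCs had 48 h in activin A, bFGF and serum replacement, without doxycycline. D2PGCLCs, D4PGCLCs and D6PGCLCs were aggregates given doxycycline for 2, 4 and 6 days and sorted for eGFP, whereas ESCs and EpiLCs were not sorted.

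Library totals ran from 22555021 counts (ESC replicate 2) to 42725681 (D6PGCLC replicate 2). The ESC totals were 27453967, 22555021 and 29790085, and the EpiLC totals 27839735, 32594579 and 29112257. D2PGCLC libraries held 33433779, 28907803 and 34808685 counts, D4PGCLC libraries 32146690, 33311717 and 34245229, and D6PGCLC libraries 34476646, 42725681 and 32530096. D6PGCLC replicate 1 stood apart: 18061 genes had at least 1 count and 304 had exactly 1, against 21103 to 24343 and 1355 to 2122 in the other 14 libraries. *Hox* calls, detection and sums of day 6 are therefore given with and without it, a check chosen after seeing the data. A *Hox* gene is called detected in a group when every sample had more than 3 counts, below detection when none did, and partly detected otherwise. At these depths 3 counts are 0.0661 to 0.132 CPM (counts scaled to library size by the TMM method). Reads carried no molecular identifiers, so floors and intervals cover counting error only. Whether the replicates were separate cultures is not stated, and p-values thus measure the spread between these samples, which may be technical. In bulk RNA, fewer expressing cells and less RNA per cell cannot be told apart.

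*Hox* transcripts were scarce throughout, and the naive ESCs held the most. In ESCs 17 of the 39 genes were detected, 12 partly and 10 below detection. EpiLCs had 8 detected and 23 below, and D2PGCLCs 6 detected and 25 below, 21 of them without a count in any sample. Detection then widened to 12 genes in D4PGCLCs (19 below) and 13 in D6PGCLCs (17 below). Without D6PGCLC replicate 1, which had 24 *Hox* genes at 0 against 11 and 14 in its group, D6PGCLCs had 17 detected, the additional ones being *Hoxa3*, *Hoxa4*, *Hoxa5* and *Hoxa10*. *Hoxa7*, *Hoxb9* and *Hoxb13* were among the genes detected in all 5 groups. At the other end, 17 genes were detected in none (14 without that library), and *Hoxb6*, *Hoxc8*, *Hoxd3* and *Hoxd12* were below detection in every group. The highest group mean of any *Hox* gene was 7.41 CPM (*Hoxc13* in ESCs), and the median gene tested there had 9.65 CPM, both without regard to gene length.

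**Figure D1:**
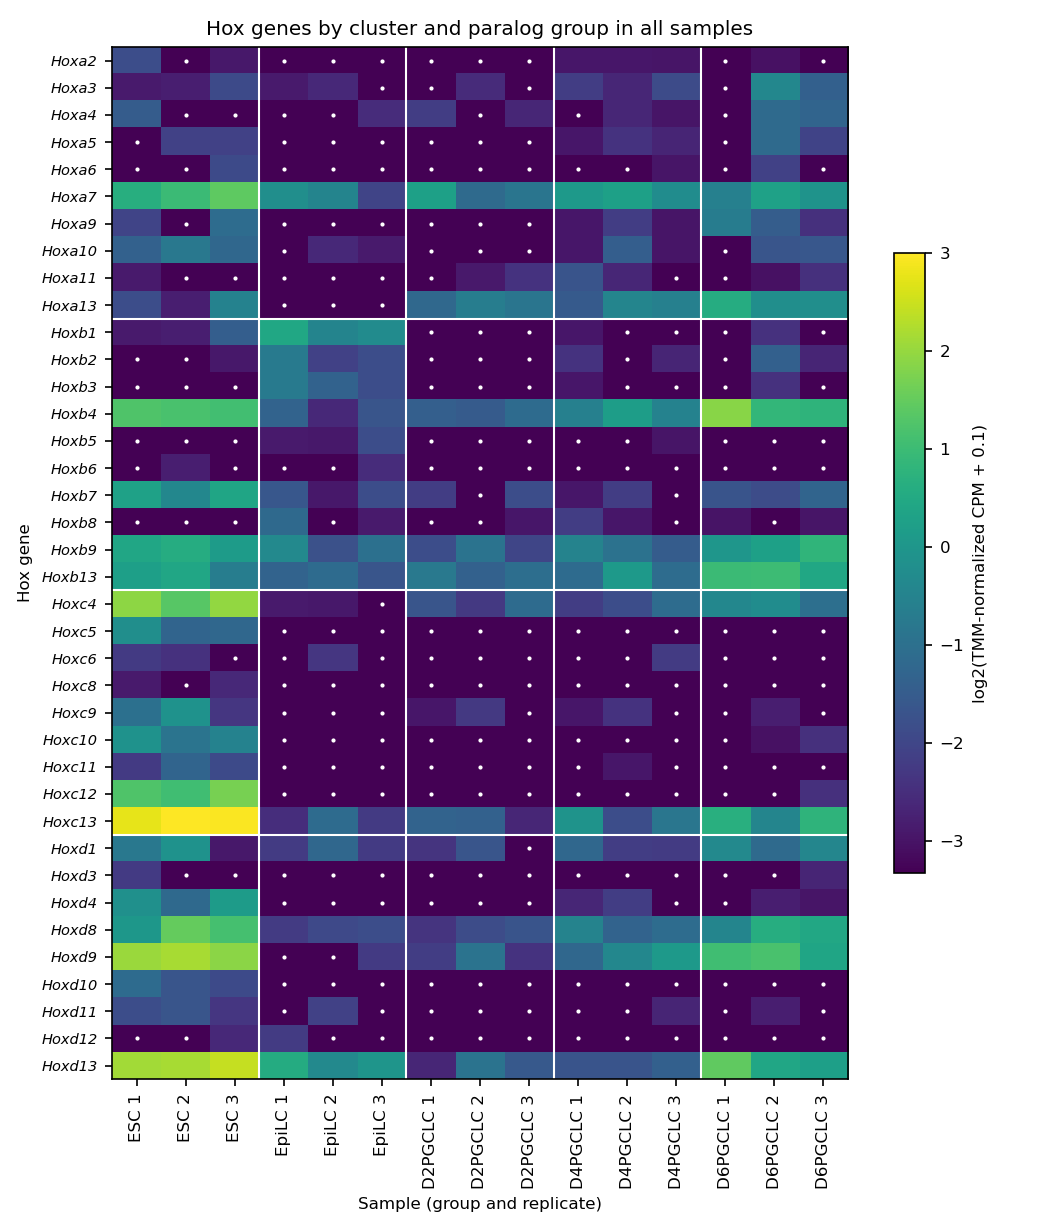
Level of 38 *Hox* genes (rows, by cluster and paralog group) in the 15 samples (columns), as log2(TMM-normalized CPM + 0.1), with a white dot where the count was 0. The bright rows in ESCs are *Hoxc4*, *Hoxc12*, *Hoxc13*, *Hoxd9* and *Hoxd13*.

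By cluster, detection shifted unevenly. *Hoxc* had 5 of 9 genes detected in ESCs, 0 in EpiLCs, 0 on day 2 of induction, and 2 each on days 4 and 6. *Hoxd* went from 5 of 9 to 1, 0, 4 and 4 in the same order. *Hoxa* stayed at 3, 2, 3, 3 and 3 of 11, with 9 of its genes below detection in EpiLCs. *Hoxb* had 4, 5, 3, 3 and 4 of 10 detected, and its 5 in EpiLCs included *Hoxb1*, *Hoxb2* and *Hoxb3*, which were not detected in ESCs. By position, posterior genes were the best represented in ESCs (9 of 16 detected) with 3 in EpiLCs, 3 on day 2 and 6 each on days 4 and 6. Central genes had 7, 1, 2, 4 and 5 of 15 detected. Anterior genes had 1, 4, 1, 2 and 2 of 8 detected, and those gained in EpiLCs were *Hoxb1*, *Hoxb2* and *Hoxb3*. The summed level of the 8 anterior genes did not rise with them (2.76 ± 0.194 CPM in ESCs and 2.31 ± 0.357 in EpiLCs, mean ± SD). The numbers below detection were 3, 3, 6, 5 and 2 for anterior genes, 5, 9, 9, 7 and 7 for central genes, and 2, 11, 10, 7 and 8 for posterior genes. Leaving out D6PGCLC replicate 1, the day 6 numbers detected were 7 *Hoxa*, 4 *Hoxb*, 2 *Hoxc* and 4 *Hoxd* genes, or 3 anterior, 7 central and 7 posterior, and those below detection were the same.

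**Figure D2:**
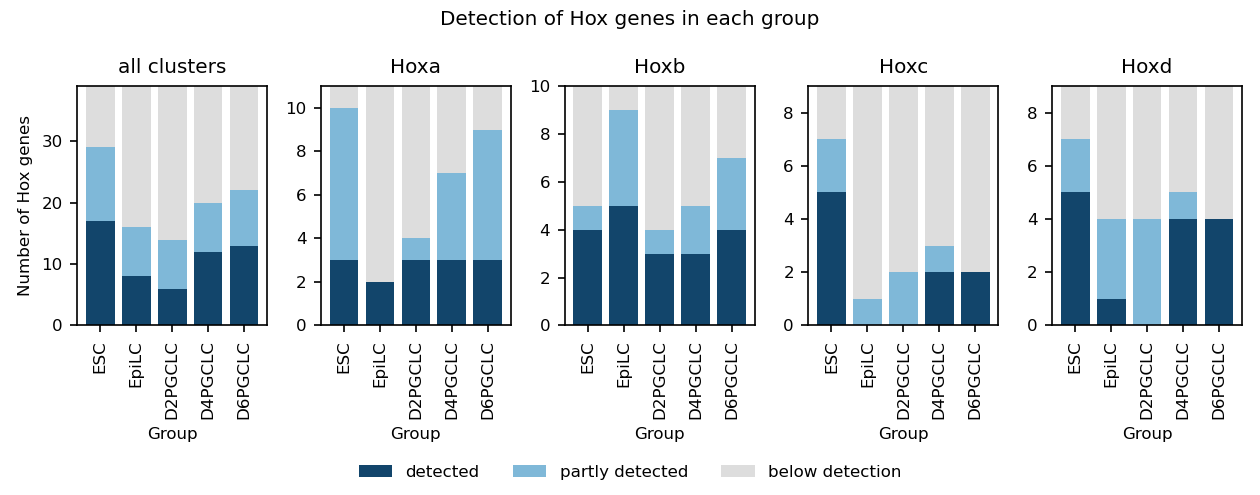
Number of *Hox* genes detected (more than 3 counts in every sample), partly detected and below detection (3 counts or fewer in every sample) in each group, for all 39 genes and for each cluster. *Hoxc* and *Hoxd* lost nearly all detected genes between ESCs (5 and 5) and EpiLCs (0 and 1).

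Summed over the 39 genes, the level was 38.0 ± 2.05 CPM in ESCs (SD, n = 3), 5.68 ± 1.24 in EpiLCs, and 5.67 ± 0.584, 9.74 ± 0.525 and 18.4 ± 1.67 in PGCLCs of days 2, 4 and 6. The makeup of that sum turned over. In ESCs the *Hoxc* genes gave 39.7% of it (15.0 ± 0.818 CPM) and in D6PGCLCs 10.3% (1.94 ± 0.422 CPM). *Hoxa* genes gave 13.9% in ESCs, 60.8% in D2PGCLCs and 31.1% in D6PGCLCs. *Hoxb* genes held the largest share in EpiLCs (48.3%). Their summed level was 5.49 ± 0.361 CPM in ESCs and 5.65 ± 0.865 in D6PGCLCs, so the D6PGCLC range spanned the ESC values. The top of that range was D6PGCLC replicate 1 (6.62 CPM, against 5.37 and 4.96), and the mean without it was 5.17 CPM. *Hoxd* genes summed to 12.3 ± 1.04 CPM in ESCs, 0.721 ± 0.470 in D2PGCLCs and 5.17 ± 0.808 in D6PGCLCs. Posterior genes made up 61.1% of the sum in ESCs, 36.0% in EpiLC samples, 31.7% and 32.8% on days 2 and 4, and 49.4% on day 6. The day 6 sum without D6PGCLC replicate 1 was 17.9 CPM, with shares of 34.6% *Hoxa*, 28.7% *Hoxb*, 9.86% *Hoxc* and 26.8% *Hoxd*, and 46.1% from posterior genes.

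**Figure D3:**
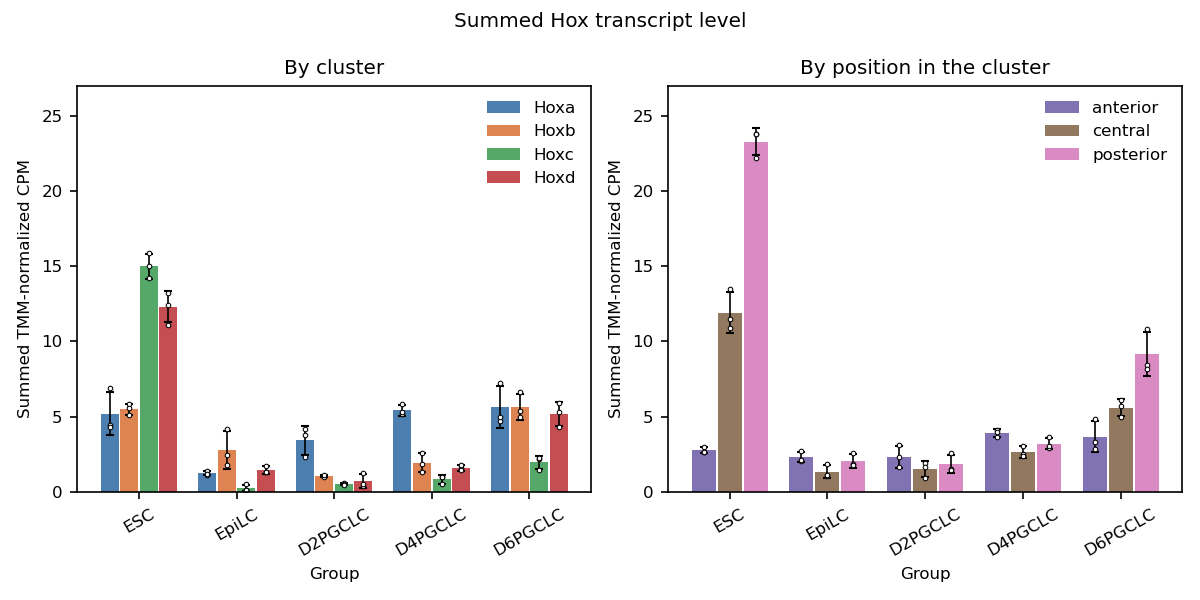
Summed TMM-normalized CPM of the *Hox* genes by cluster (left) and by position (right) in each group. Bars are means, error bars SD and circles the 3 samples, and posterior genes stood at 23.3 CPM in ESCs and 9.16 CPM in D6PGCLCs.

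Of the 39 genes, 11 reached a mean of at least 1 CPM in some group, and 10 are described sample by sample, with counts in the order of replicates 1, 2 and 3. Identifiers and positions are from the GENCODE M21 annotation. Levels of these genes are put in order per kilobase of exon. On that scale the 5 highest in ESCs were *Hoxc13* (3.01 CPM per kb), *Hoxc12* (2.40), *Hoxd13* (1.89), *Hoxd9* (1.88) and *Hoxc4* (1.29). In EpiLCs *Hoxd13* (0.396) and *Hoxb1* (0.376) came first. *Hoxb4* stood at 0.849 in ESCs and 0.904 in D6PGCLCs, where *Hoxd9* was at 0.838 and *Hoxb13* at 0.764. Exons overlap those of another gene on the same strand for 9 *Hox* genes and on the opposite strand for 10, and these levels are uncertain. The library kit keeps strand, but whether the counting used it is not given in the sources used here, so reads of a gene and of its antisense partner cannot be told apart.

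*Hoxa7* (ENSMUSG00000038236, chr6:52214491-52221854, minus strand), a gene of the trunk, had 40, 43 and 78 counts in ESCs and 20, 19 and 4 in EpiLCs. Its counts were 36, 10 and 15 on day 2, 32, 37 and 26 on day 4 and 22, 51 and 30 on day 6. ESCs were high, every other group lay below them, and those 4 groups overlapped. The means were 1.99 ± 0.583 CPM in ESCs, 0.512 ± 0.324 in EpiLCs and 0.850 ± 0.272 in D6PGCLCs, and 20.4% of the exon length is shared with the antisense gene *Hoxaas3*. *Hoxa13*, needed for the digits and the urogenital tract, stayed under 1 CPM in all group means. ESC samples had 5, 1 and 18 counts and EpiLCs none, day 2 had 11, 15 and 15, day 4 had 8, 21 and 20, and day 6 had 54, 35 and 27. With all samples, *Hoxa10* was detected in ESCs only (8, 11 and 10 counts), and *Hoxa2* to *Hoxa6*, *Hoxa9* and *Hoxa11* in no group. These calls rest in part on D6PGCLC replicate 1, which had no count of *Hoxa3* (0, 30 and 10), *Hoxa4* (0, 16 and 11), *Hoxa5* (0, 16 and 5) or *Hoxa10* (0, 10 and 8). Without it all 4 were detected on day 6.

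*Hoxb4* (ENSMUSG00000038692, chr11:96318267-96321638, plus strand) is known for expanding blood stem cells. Its counts were 63, 50 and 61 in ESCs and 8, 2 and 6 in EpiLCs, and then 9, 7 and 12 on day 2, 19, 35 and 21 on day 4 and 137, 78 and 58 on day 6. ESCs and D6PGCLCs were high and overlapped, and D4PGCLCs lay between them and the low EpiLCs and D2PGCLCs. The means were 2.18 ± 0.128, 0.197 ± 0.122, 0.296 ± 0.0572, 0.744 ± 0.269 and 2.32 ± 1.11 CPM. D6PGCLC replicate 1 was the highest sample (3.60 CPM). D6PGCLC replicates 2 and 3 (1.72 and 1.64 CPM) lay below every ESC sample (2.04 to 2.30 CPM), so the overlap rests on replicate 1. *Hoxb9* (ENSMUSG00000020875, chr11:96271457-96276595, plus strand), which acts in the thoracic skeleton, had 34, 32 and 30 counts in ESCs and 18, 6 and 11 in EpiLCs. It had 6, 12 and 5 counts on day 2, 20, 14 and 9 on day 4 and 34, 50 and 59 on day 6. Again ESCs (1.22 ± 0.200 CPM) and D6PGCLCs (1.22 ± 0.403 CPM) overlapped and lay above all other samples. *Hoxb13* (ENSMUSG00000049604, chr11:96194316-96197447, plus strand), a gene of the tail end and the prostate, had 30, 28 and 16 counts in ESCs, 8, 11 and 6 in EpiLC samples and 16, 8 and 13 on day 2. It had 12, 32 and 13 counts in D4PGCLCs and 72, 87 and 44 in D6PGCLCs. Every D6PGCLC sample was above every ESC sample, with means of 1.68 ± 0.379 and 0.953 ± 0.367 CPM. *Hoxb7*, another trunk gene, was detected in ESCs (31, 15 and 36 counts, 0.998 ± 0.297 CPM) and in D6PGCLCs (8, 8 and 11).

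The anterior *Hoxb* genes followed a different course. *Hoxb1*, which sets the identity of a hindbrain segment, had 1, 1 and 8 counts in ESCs, 33, 19 and 20 in EpiLCs, none in D2PGCLCs, 1, 0 and 0 in D4PGCLCs and 0, 4 and 0 in D6PGCLCs. *Hoxb2* (13, 4 and 5 counts) and *Hoxb3* (13, 9 and 5 counts) were likewise detected in EpiLCs, where their neighbour *Hoxb1* was highest (0.874 ± 0.341 CPM). In ESCs and D2PGCLCs these neighbours had at most 1 count in a sample. *Hoxb3* shares 52.9% of its exon length with the antisense gene *Hoxb3os*. The start regions of *Hoxb1* and *Hoxb4* are shown because these genes of the same cluster had opposite levels in ESCs and EpiLCs. The windows run from 250 bases before to 50 after the annotated start (RefSeq, GRCm38.p6), chr11:96365508-96365807 for *Hoxb1* and chr11:96318017-96318316 for *Hoxb4*, both on the plus strand. Capitals mark matches, on either strand, to TGATNNAT (the letters joint PBX and HOX proteins bind), AGGTCA (letters bound by retinoic acid receptors) or TTTATG (letters of CDX and posterior HOX proteins).
Hoxb1: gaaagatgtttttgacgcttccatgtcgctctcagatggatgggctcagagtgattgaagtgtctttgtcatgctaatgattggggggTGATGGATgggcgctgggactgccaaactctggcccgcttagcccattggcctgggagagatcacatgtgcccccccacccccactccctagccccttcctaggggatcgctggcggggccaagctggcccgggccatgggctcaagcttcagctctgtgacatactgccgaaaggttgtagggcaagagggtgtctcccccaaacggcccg
Hoxb4: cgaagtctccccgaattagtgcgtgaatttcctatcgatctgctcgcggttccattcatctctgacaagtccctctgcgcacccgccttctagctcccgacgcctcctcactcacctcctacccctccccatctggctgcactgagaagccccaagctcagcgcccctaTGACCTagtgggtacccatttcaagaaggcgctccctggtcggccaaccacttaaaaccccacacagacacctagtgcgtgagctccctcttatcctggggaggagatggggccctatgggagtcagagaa
The capitals are TGATGGAT for *Hoxb1* and TGACCT, the reverse complement of AGGTCA, for *Hoxb4*. Such windows were found for 22 of the 39 *Hox* genes (24 windows). Matches to TGATNNAT were in 4 of them, to AGGTCA in 7 and to TTTATG in 5, beside 8.85%, 16.3% and 11.9% of all 32851 windows, and in 1 *Hox* window 2 matches overlapped. A match describes the letters and is not evidence of binding.

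*Hoxc13* (ENSMUSG00000001655, chr15:102921103-102928814, plus strand), a regulator of hair and nail keratins, was the most abundant *Hox* gene per kilobase in ESCs. It had 185, 179 and 228 counts in ESCs, 2, 11 and 3 in EpiLCs, 10, 8 and 2 in D2PGCLCs, 28, 6 and 16 in D4PGCLCs and 57, 29 and 58 in D6PGCLCs. ESCs (7.41 ± 0.582 CPM) were far above the rest, and D6PGCLCs (1.26 ± 0.543 CPM) overlapped with D4PGCLCs (0.496 ± 0.336 CPM). *Hoxc12* (ENSMUSG00000050328, chr15:102936757-102938609, plus strand), its neighbour and also active in hair follicles, had 63, 45 and 94 counts in ESCs (2.47 ± 0.607 CPM). Outside ESCs it had no count except 3 in D6PGCLC replicate 3. *Hoxc4* (ENSMUSG00000075394, chr15:103018934-103036852, plus strand), a gene of the neck and upper thorax at the opposite end of the cluster, had 101, 56 and 114 counts in ESCs and 1, 1 and 0 in EpiLCs. Its counts were 7, 3 and 12 in D2PGCLCs, 4, 6 and 13 in D4PGCLCs and 25, 34 and 14 in D6PGCLCs. It was high in ESCs (3.32 ± 0.752 CPM), near 0 in EpiLCs and low in D6PGCLCs (0.601 ± 0.183 CPM), which lay above all D2PGCLC and D4PGCLC samples. *Hoxc5* (21, 7 and 10 counts) and *Hoxc10* (23, 10 and 18 counts) were detected in ESCs, and *Hoxc5* had no count in the other 12 samples. The start region of *Hoxc4* (chr15:103034145-103034444, plus strand) is shown as the counterpart of *Hoxb4*, its paralog. For *Hoxb4* the means were 2.18 CPM in ESCs and 2.32 CPM in D6PGCLCs, the latter raised by D6PGCLC replicate 1. The RefSeq start of *Hoxc4* lies 15461 bases downstream of the start of the annotated gene, and capitals mark the same letters as for *Hoxb4*.
Hoxc4: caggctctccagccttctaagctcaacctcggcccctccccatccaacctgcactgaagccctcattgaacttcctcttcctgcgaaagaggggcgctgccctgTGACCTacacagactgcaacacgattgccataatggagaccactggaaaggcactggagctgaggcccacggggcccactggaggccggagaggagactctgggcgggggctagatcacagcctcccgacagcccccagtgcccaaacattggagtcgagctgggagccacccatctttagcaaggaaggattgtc
Both paralogs carry TGACCT in this window, as does *Hoxd4* of the same paralog group.

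*Hoxd13* (ENSMUSG00000001819, chr2:74668310-74671599, plus strand), which shapes the digits and external genitalia, had 117, 101 and 160 counts in ESCs, 36, 21 and 24 in EpiLC samples and 2, 12 and 8 on day 2. It had 7, 7 and 10 counts in D4PGCLCs and 100, 56 and 38 in D6PGCLCs. The level stepped down from ESCs (4.69 ± 0.590 CPM) to EpiLCs (0.983 ± 0.355) and D2PGCLCs (0.244 ± 0.184), and D6PGCLCs (1.65 ± 0.854) overlapped with EpiLCs. D6PGCLC replicate 1 was again the highest of its group (2.63 CPM, against 1.23 and 1.08). *Hoxd9* (ENSMUSG00000043342, chr2:74697727-74700208, plus strand), which acts in the lower spine and forelimb, had 110, 100 and 108 counts in ESCs, 0, 0 and 3 in EpiLC samples and 4, 12 and 3 on day 2. It had 11, 22 and 34 counts in D4PGCLCs and 75, 99 and 43 in D6PGCLCs. ESCs were highest and EpiLCs lowest, with ESCs (4.01 ± 0.383 CPM) above D6PGCLCs (1.79 ± 0.505), these above D4PGCLCs (0.657 ± 0.320), and D2PGCLCs (0.214 ± 0.188) overlapping with both D4PGCLCs and EpiLCs. *Hoxd8* (ENSMUSG00000027102, chr2:74704615-74707933, plus strand), a trunk gene beside it, had 25, 63 and 62 counts in ESCs, 3, 5 and 5 in EpiLCs, 3, 5 and 7 in D2PGCLCs, 20, 10 and 13 in D4PGCLCs and 24, 65 and 45 in D6PGCLCs. ESCs (1.92 ± 0.935 CPM) and D6PGCLCs (1.11 ± 0.425 CPM) overlapped, and EpiLCs and D2PGCLCs were low. *Hoxd4*, a gene of the neck, had 22, 8 and 30 counts in ESCs, but 52.3% of its exon length is shared with *Gm28230* or *Hoxd3* on the same strand. The start regions of *Hoxd13* (chr2:74667975-74668274, plus strand) and *Hoxd9* (chr2:74697513-74697812, plus strand) are shown with CG dinucleotides in capitals, the letters that polycomb-bound CpG islands are rich in.
Hoxd13: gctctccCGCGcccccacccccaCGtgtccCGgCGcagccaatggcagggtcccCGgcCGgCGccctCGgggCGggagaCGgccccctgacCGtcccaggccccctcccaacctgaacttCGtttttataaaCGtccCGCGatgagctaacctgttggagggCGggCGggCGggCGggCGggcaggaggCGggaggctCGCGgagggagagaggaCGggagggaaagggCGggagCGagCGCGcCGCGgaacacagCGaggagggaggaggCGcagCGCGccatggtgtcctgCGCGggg
Hoxd9: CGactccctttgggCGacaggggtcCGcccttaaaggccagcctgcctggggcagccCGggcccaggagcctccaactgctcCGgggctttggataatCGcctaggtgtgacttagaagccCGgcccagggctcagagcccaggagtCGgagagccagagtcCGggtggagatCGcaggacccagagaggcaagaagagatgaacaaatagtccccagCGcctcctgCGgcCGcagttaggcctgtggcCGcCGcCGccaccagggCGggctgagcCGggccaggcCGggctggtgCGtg
They hold 37 and 20 CG, where the median was 14.5 over the 24 *Hox* windows (at most 45, in *Hoxa13*) and 7 over all windows.

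**Figure D4:**
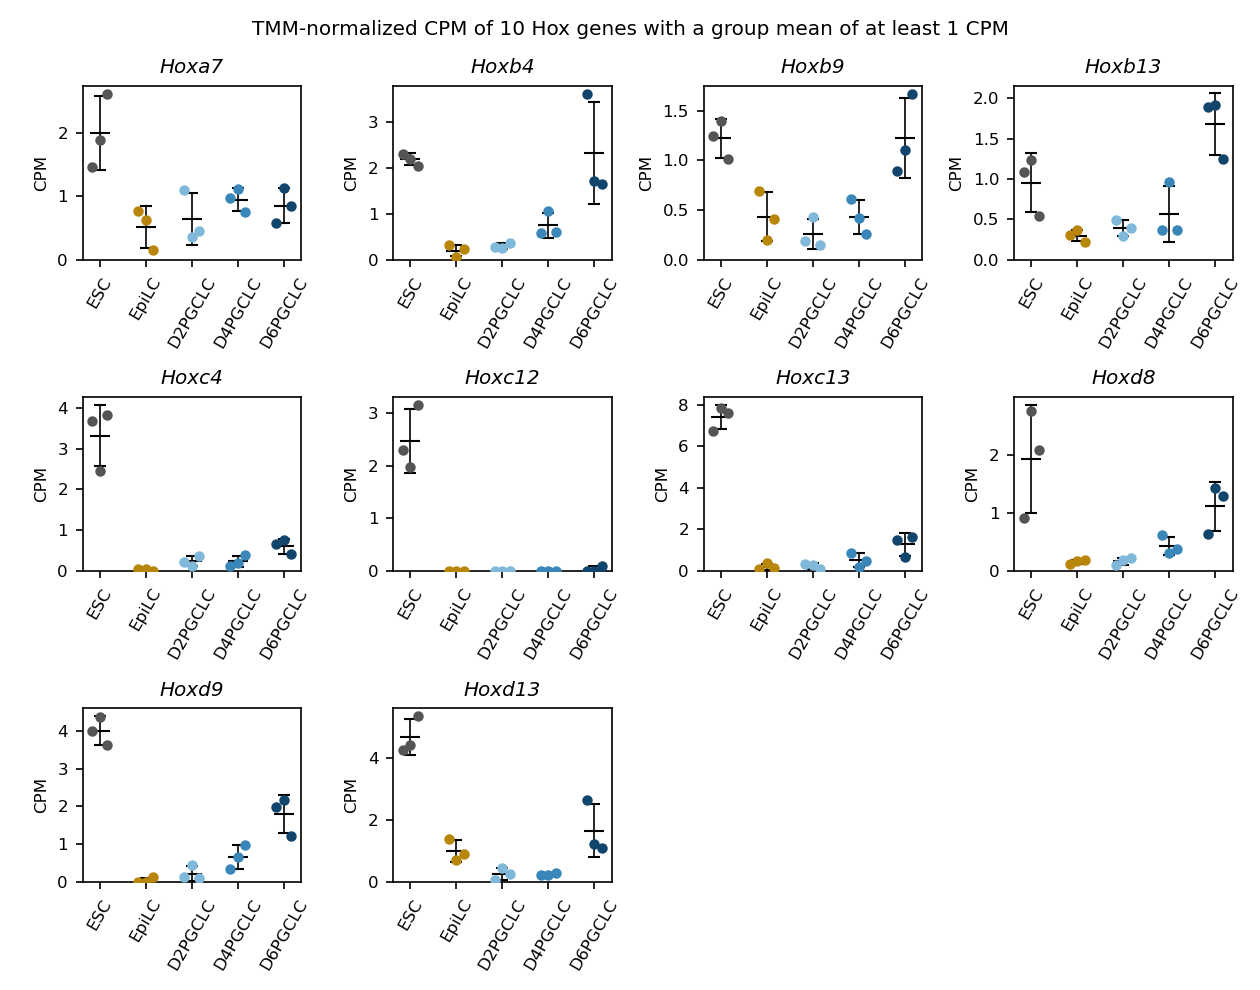
TMM-normalized CPM of 10 *Hox* genes with a mean of at least 1 CPM in some group, by group. Points are the 3 samples, horizontal marks the mean and error bars the SD, and every gene shown but *Hoxb4*, *Hoxb9* and *Hoxb13* had its highest mean in ESCs.

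A count filter left 18090 genes to test, 18 *Hox* genes among them; the other 21 were too low. Some of the 18 passed only because 1 group was high, so their counts and medians describe these genes and no more. A gene is called higher or lower when its log2 fold change was beyond 1 in size with an adjusted p under 0.05 by edgeR's quasi-likelihood test with Benjamini-Hochberg adjustment over all genes tested, and every adjusted p given comes from it. Each comparison has 3 samples against 3.

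The exit from the naive state, EpiLCs against ESCs, was the comparison in which most *Hox* genes changed. Among genes with counts in both groups, *Hoxc4* and *Hoxd9* were the most reduced, from 271 and 318 counts over the ESC samples to 2 and 3 over the EpiLC samples. *Hoxc12* went from 202 counts to 0, and *Hoxc13*, *Hoxd8* and *Hoxb4* fell by 5.27, 3.59 and 3.47 on the log2 scale. The anterior gene *Hoxb1* rose. Of the 39 genes, 16 were lower (11.9% of all genes tested were) and 1 was higher (14.4% of all genes). The lower genes were 3 of 11 *Hoxa*, 4 of 10 *Hoxb*, 5 of 9 *Hoxc* and 4 of 9 *Hoxd* genes, with 7 of 15 central and 8 of 16 posterior genes. No EpiLC sample overlapped with an ESC sample for any of these 17 genes. The median log2 fold change was −3.53 over the 18 genes tested, −2.40 with genes at 0 set to their bound, and −0.01 over all genes. For *Hoxc4* the ESC to EpiLC ratio was 142 (95% counting interval 38.9 to 1177, adjusted p = 1.80e-07 by edgeR). For *Hoxd9* it was 111 (37.6 to 541, edgeR adjusted p = 4.88e-07). Against a floor of 3 counts per library, *Hoxc12* was at least 22.9-fold lower (edgeR adjusted p = 6.01e-05), *Hoxd4* at least 6.67-fold, *Hoxc10* at least 5.81-fold, *Hoxc5* at least 4.35-fold and *Hoxa13* at least 2.56-fold. The *Hoxa13* bound rests largely on ESC replicate 3, which had 18 counts against 5 and 1 in replicates 1 and 2. *Hoxc13* had a standard error of 0.593 (edgeR adjusted p = 4.96e-07). Smaller decreases were called for *Hoxd13* (−2.26 ± 0.437 SE, edgeR adjusted p = 0.000256), *Hoxa7* (−1.95 ± 0.530) and *Hoxb13* (−1.66 ± 0.516), all log2 fold changes. *Hoxb1* rose by 2.82 ± 0.959 on the log2 scale (edgeR adjusted p = 0.0206), but the call was lost without EpiLC replicate 1 (2.48), ESC replicate 1 (2.40) or ESC replicate 2 (2.47). *Hoxb9* (−1.50 ± 0.534) lost its call without EpiLC replicate 2 (−1.14) or 3 (−1.45) or ESC replicate 1 (−1.49) or 2 (−1.39), and *Hoxb7* (−2.74) without EpiLC replicate 2 (−2.25). DESeq2 did not call *Hoxc5*.

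From EpiLCs to D2PGCLCs, the first step of germ cell induction, few *Hox* genes were called, in both directions. *Hoxa13* appeared, and *Hoxc4* and *Hoxd9* rose from near 0, while *Hoxb1* and *Hoxd13* fell. In all, 4 *Hox* genes were higher (11.0% of all genes tested were higher) and 2 were lower (14.4% of all genes). The median log2 fold change was 0.02 over the 18 genes, 0.25 over the 14 above the floor in either group with genes at 0 at their bound, and 0.00 over all genes. *Hoxa13* was at least 4.09-fold higher (edgeR adjusted p = 0.000518). *Hoxb1*, without a count in D2PGCLCs, was at least 9.06-fold lower (edgeR adjusted p = 0.000390), and *Hoxd13* fell by 2.02 ± 0.519 SE on the log2 scale (edgeR adjusted p = 0.00297). The ratio for *Hoxc4* was 9.82 (95% counting interval 2.41 to 86.1, edgeR adjusted p = 0.00511). For *Hoxd9* it was 5.65 (1.66 to 29.8, edgeR adjusted p = 0.0402), with overlapping groups. Its call was lost without D2PGCLC replicate 2 (1.48 on the log2 scale) or EpiLC replicate 1 (1.91) or 2 (1.82). *Hoxa7* (log2 fold change 0.32, edgeR adjusted p = 0.651) and *Hoxb4* (0.61, edgeR adjusted p = 0.383) did not pass.

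Among the PGCLC days, summed *Hox* levels in D6PGCLCs were above those of day 2 in all 4 clusters. With all samples edgeR called 0 *Hoxa* genes, and the median log2 fold change of the 3 tested was 0.41. From D2PGCLCs to D6PGCLCs, 8 of 39 genes rose (10.9% of all genes tested) and 0 fell by edgeR (2.75% of all genes), also at an unadjusted p under 0.05, where 9 were higher; DESeq2 called 11 genes. The risers were *Hoxb4*, *Hoxb9* and *Hoxb13*, *Hoxc4* and *Hoxc13*, and *Hoxd8*, *Hoxd9* and *Hoxd13*. *Hoxd1*, an anterior gene, rose by 2.46 ± 0.970 without overlap but did not pass (edgeR adjusted p = 0.0535). *Hoxd9* rose by 3.09 ± 0.578 SE on the log2 scale (edgeR adjusted p = 0.000396), *Hoxb4* by 2.95 ± 0.467 (8.20e-05) and *Hoxd8* and *Hoxd13* by 2.77 each. The increases of *Hoxc13*, *Hoxb9* and *Hoxb13* were 2.52, 2.27 and 2.10. No sample overlapped for these genes. *Hoxc4* rose by 1.37 (edgeR adjusted p = 0.0493), a call lost without D6PGCLC replicate 1 (1.31) or 2 (1.17) or D2PGCLC replicate 1 (1.32) or 2 (1.05). The median log2 fold change was 2.49 over the 18 genes, 2.18 over the 14 above the floor with bounds, and 0.00 over all genes. Without D6PGCLC replicate 1, 8 genes were higher, 7 of them the same.

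From D2PGCLCs to D4PGCLCs, edgeR called 0 *Hox* genes in either direction (2.56% of all genes were higher and 0.376% lower), 4 were higher at an unadjusted p under 0.05, and DESeq2 called 1, *Hoxd9*. *Hoxd9* (log2 fold change 1.65 ± 0.603 SE, edgeR adjusted p = 0.0835) was called by edgeR without D4PGCLC replicate 1 or D2PGCLC replicate 2, 1 gene in each case. *Hoxb4* stood at 1.31 ± 0.479 (edgeR adjusted p = 0.0832). The median was 0.60 over the 18 genes, 0.60 over the 14 above the floor, and 0.02 over all genes. From D4PGCLCs to D6PGCLCs, *Hoxd13*, *Hoxb4* and *Hoxb13* rose, 3 of 39 genes (2.29% of all genes), and 0 fell (0.785% of all genes), with 9 at an unadjusted p under 0.05, all higher, and 6 calls by DESeq2. *Hoxd13* rose by 2.78 ± 0.496 on the log2 scale (edgeR adjusted p = 0.00141). *Hoxb4* rose by 1.64 ± 0.423 (edgeR adjusted p = 0.0160) and lost its call without D6PGCLC replicate 1 (1.17) or D4PGCLC replicate 1 (1.48) or 3 (1.50). *Hoxb13* rose by 1.57 ± 0.468 (edgeR adjusted p = 0.0334) and lost its call without D6PGCLC replicate 1 (1.48) or 2 (1.46) or D4PGCLC replicate 1 (1.33) or 3 (1.33). Only *Hoxd13* was called without D4PGCLC replicate 3. Without D6PGCLC replicate 1, 2 genes were higher, 1 of them the same. The median was 1.42 over the 18 genes, 1.40 over the 15 above the floor with bounds, and −0.01 over all genes. These 3 comparisons of PGCLC days share samples and are given side by side.

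**Figure D5:**
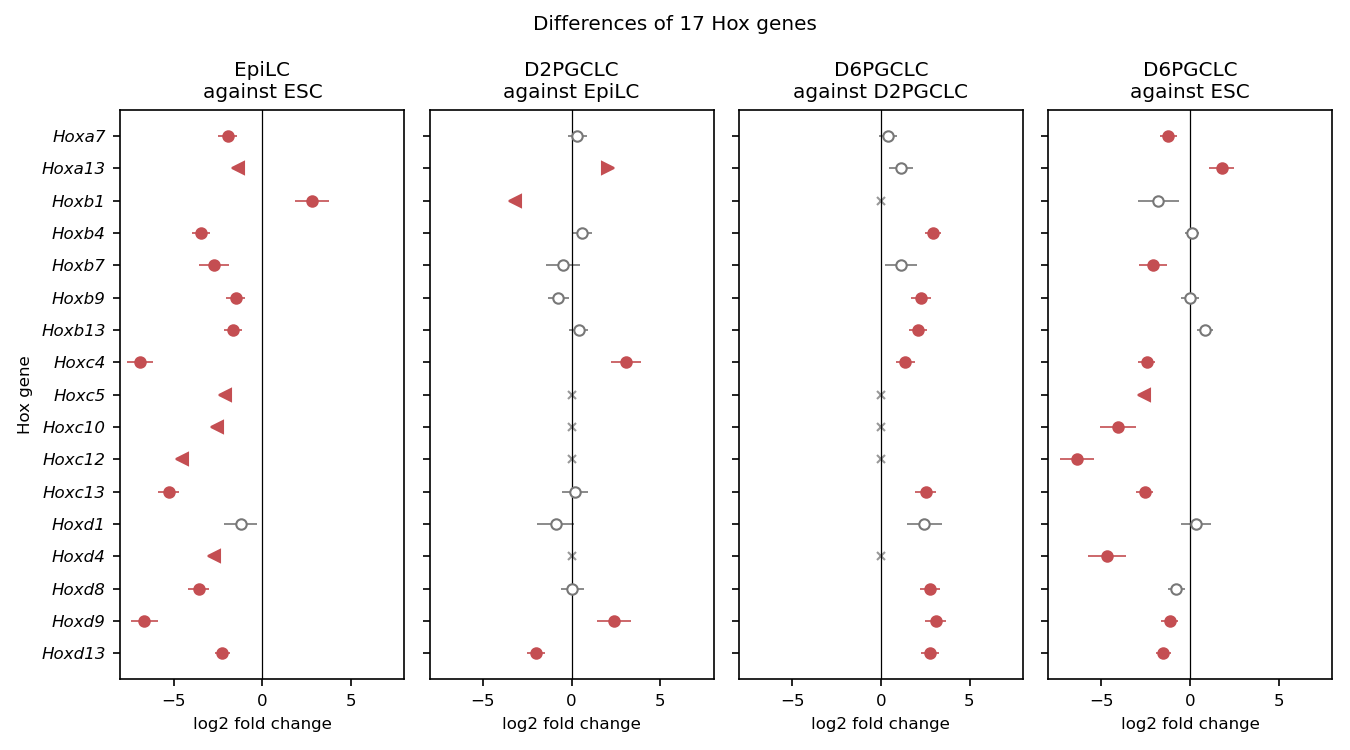
Log2 fold change of 17 *Hox* genes in 4 of the 7 comparisons, with SE bars; filled red circles passed the test and open grey circles did not. Triangles are bounds against a group at 0, and crosses mark genes at or under the floor. Fitted values of *Hoxc4* and *Hoxd9* in EpiLCs and of *Hoxb1*, *Hoxc12*, *Hoxd4* and *Hoxc10* in D6PGCLCs rest on 2 to 4 counts.

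Over the whole germ cell induction, D6PGCLCs against EpiLCs, *Hoxd9*, *Hoxc4* and *Hoxb4* had risen the most among genes with counts in both groups, and *Hoxb1* had fallen. Of the 39 genes, 9 were higher (15.9% of all genes tested) and 1 was lower (12.0%). The *Hoxd9* ratio was 51.0 (95% counting interval 17.2 to 249, edgeR adjusted p = 5.64e-06) and that of *Hoxc4* 25.8 (6.88 to 217, edgeR adjusted p = 6.50e-05). *Hoxb4* rose by 3.56 ± 0.500 SE on the log2 scale (edgeR adjusted p = 6.60e-06), *Hoxd8* by 2.82, *Hoxc13* by 2.71 and *Hoxb13* by 2.49. *Hoxa13* was at least 9.13-fold higher (edgeR adjusted p = 5.36e-05). *Hoxb1* fell by 4.60 ± 1.07 (edgeR adjusted p = 0.00148), which rests on 4 counts in D6PGCLCs, all in replicate 2. Its EpiLC to D6PGCLC ratio was 25.5 (95% counting interval 9.54 to 96.2). *Hoxd13* (log2 fold change 0.75, edgeR adjusted p = 0.150) and *Hoxa7* (0.73, edgeR adjusted p = 0.250) did not pass. *Hoxb9* rose by 1.51 (edgeR adjusted p = 0.0201), a call lost without D6PGCLC replicate 3 (1.23) or EpiLC replicate 2 (1.17) or 3 (1.48). No sample overlapped for the 10 genes called. The median was 2.60 over the 18 genes, 2.27 over the 14 above the floor with bounds, and 0.03 over all genes. Without D6PGCLC replicate 1, 10 genes were higher and 1 lower, 10 of them the same.

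Set against the ESCs they came from, D6PGCLCs had called changes in some *Hox* genes, most of them lower, while other genes did not pass. The *Hoxb* genes *Hoxb4* (0.09), *Hoxb9* (0.01) and *Hoxb13* (0.83), with *Hoxd8* (−0.78), had log2 fold changes that did not pass, the smallest of their edgeR adjusted p-values being 0.134 (*Hoxb13*). A p that misses the threshold does not show equal levels. All 5 *Hoxc* genes tested, which were those detected in ESCs, were lower. Of these, *Hoxc5*, *Hoxc10* and *Hoxc12* had at most 3 counts in any sample outside ESCs. They passed the count filter only through ESCs, so their direction was set by that filter. Of the 39 genes, 10 were lower (10.3% of all genes tested) and 1 was higher (15.8%), and the lower ones were 1 *Hoxa*, 1 *Hoxb*, 5 *Hoxc* and 3 *Hoxd* genes. *Hoxc12* had an ESC to D6PGCLC ratio of 99.9 (95% counting interval 33.7 to 488, edgeR adjusted p = 0.000103) and *Hoxd4* of 29.7 (9.68 to 148, edgeR adjusted p = 0.00190). Each ratio rests on 3 counts over the D6PGCLC samples, for *Hoxc12* all in replicate 3, and no sample was above the floor. They therefore cannot be set against the bounds given for groups at 0. *Hoxc5* was at least 6.12-fold lower (edgeR adjusted p = 0.00209, not called by DESeq2), and *Hoxc10*, with 4 counts over the D6PGCLC samples, had an ESC to D6PGCLC ratio of 18.9 (6.95 to 72.0). *Hoxc13* fell by 2.56 ± 0.473 (edgeR adjusted p = 0.000160), *Hoxc4* by 2.45 ± 0.476 (0.000264) and *Hoxd13* by 1.51 ± 0.413 (0.00478). Calls near the threshold were lost with a single library left out. *Hoxa7* (log2 fold change −1.22) lost its call without D6PGCLC replicate 1 (−0.99) or 3 (−1.20) or ESC replicate 2 (−1.26) or 3 (−0.95). *Hoxb7* (−2.10) lost it without any D6PGCLC replicate, ESC replicate 1 or ESC replicate 3 (−2.34 to −1.93). *Hoxd9* (−1.16) lost it without any single sample of either group, at values from −1.33 to −0.93. *Hoxa13* (1.77, edgeR adjusted p = 0.0416) lost it without any D6PGCLC replicate, ESC replicate 1 or ESC replicate 2 (1.31 to 1.94). The size of this *Hoxa13* change depends on ESC replicate 3, at 0.603 CPM against 0.182 and 0.0438 in ESC replicates 1 and 2. Without D6PGCLC replicate 1, 8 genes were lower, 7 of them the same. The median was −1.36 over the 18 genes, −1.36 with bounds, and 0.00 over all genes. This comparison shares its ESC samples with that of EpiLCs against ESCs and its D6PGCLC samples with the other comparisons of day 6.

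Noncoding genes lie between the *Hox* genes, 43 of them in the 4 clusters, of which 4 were abundant enough to test. *Gm53*, which lies between *Hoxb13* and *Hoxb9* (chr11:96251105-96264868), had 540, 430 and 498 counts in ESCs, 22, 37 and 34 in EpiLCs, 60, 49 and 60 in D2PGCLCs, 159, 118 and 183 in D4PGCLCs and 546, 583 and 641 in D6PGCLCs. The level was high in ESCs and D6PGCLCs and lowest in EpiLCs, without overlap between EpiLCs and any other group. *Gm53* fell by 4.05 ± 0.212 SE on the log2 scale from ESCs to EpiLCs (edgeR adjusted p = 1.38e-11), and it rose by 1.33 from day 2 to day 4 and by 1.73 from day 4 to day 6. *Mir196a-1*, the locus of a microRNA that lies beside it and targets *Hoxb8* transcripts, had 14, 21 and 17 counts in ESCs, 0 in EpiLCs, 5, 1 and 0 in D2PGCLCs, 2, 0 and 5 in D4PGCLCs and 11, 30 and 27 in D6PGCLCs. Counts at the locus do not separate the mature microRNA from a longer RNA. The mature sequences of 2 microRNA families with loci in the *Hox* clusters are shown with the seed (bases 2 to 8) in capitals (RefSeq, GRCm38.p6, 6 of 6 loci matched, of which *Mir615* is not shown), because the seed is what pairs with target transcripts.
mmu-miR-196a-5p: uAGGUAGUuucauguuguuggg
mmu-miR-196b-5p: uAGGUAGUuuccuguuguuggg
mmu-miR-10a-5p: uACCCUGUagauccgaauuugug
mmu-miR-10b-5p: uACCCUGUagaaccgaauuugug
The first pair shares the seed AGGUAGU and the second the seed ACCCUGU. In these libraries *Mir196a-1* (chr11:96265187-96265208, plus strand) was the only of the 6 loci with any count. The noncoding list had 3 lower genes in EpiLCs against ESCs (*Gm53*, *Mir196a-1* and *Hoxd3os1*, the latter pair named after their values were seen). In that comparison 11.9% of all genes tested were lower. From EpiLCs to D2PGCLCs edgeR called 0 (11.0% of all genes were higher and 14.4% lower), with 2 at an unadjusted p under 0.05 and 0 by DESeq2. The list then had 1 higher from day 2 to 4 (2.56% of all genes), 2 from day 4 to 6 (2.29%) and 2 from day 2 to 6 (10.9%). It had 2 higher in D6PGCLCs against EpiLCs (15.9% of all genes) and 1 lower in D6PGCLCs against ESCs (10.3%). The coding genes that flank the clusters, 3 on each side of each (24 genes, 23 tested), were counted in the same way. Of these, 5 were lower in EpiLCs than in ESCs (11.9% of all genes tested were), and 5 were higher in D2PGCLCs than in EpiLCs (11.0% of all genes). *Calcoco2*, an autophagy receptor beside *Hoxb*, fell by 1.53 and then rose by 2.33 on the log2 scale, and *Ttll6*, a tubulin glutamylase, fell by 1.24 and rose by 2.34. From day 2 to 4 and from day 2 to 6 edgeR called 0 flanking genes (6 and 12 at an unadjusted p under 0.05, 0 and 0 by DESeq2). Over all genes tested, 2.56% were higher and 0.376% lower from day 2 to 4, and 10.9% and 2.75% from day 2 to 6. Of the flanking genes 1 (*Evx1*) was lower on day 6 than on day 4 (0.785% of all genes, and 0 flanking genes by edgeR without D6PGCLC replicate 1). In D6PGCLCs 3 were higher and 2 lower than in EpiLCs (15.9% and 12.0% of all genes), and 3 were higher and 1 lower than in ESCs (15.8% and 10.3%).

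Counts of called genes in the lists that follow stand beside shares over all genes tested of 14.4% higher and 11.9% lower in EpiLCs against ESCs, and 11.0% and 14.4% on day 2 against EpiLCs. Those shares were 2.56% and 0.376% from day 2 to 4, 2.29% and 0.785% from day 4 to 6, 10.9% and 2.75% from day 2 to 6, 15.9% and 12.0% in D6PGCLCs against EpiLCs and 15.8% and 10.3% against ESCs. No list was tested for a difference from them. Some lists share genes: *Hand1* is both a caudal and a trophoblast marker, *Cdx1*, *Cdx2* and *Cdx4* are in the ParaHox and caudal lists, and *Evx1* is also a flanking gene. Of 128 counts of listed genes called higher or lower on day 6, 19 differed without D6PGCLC replicate 1, by at most 2. HOX proteins bind DNA with TALE homeodomain partners of the PBX, MEIS and PKNOX families. All 9 of these genes were tested, and 8 or 9 were detected in each group, with sums of 106.0 ± 1.74 CPM in ESCs and 174.9 ± 1.36 CPM in D6PGCLCs. In EpiLCs against ESCs 1 rose and 3 fell, *Meis2* from 12.5 to 1.28 CPM (log2 fold change −3.27). On day 2 against EpiLCs 2 rose and 2 fell, with log2 fold changes of 4.06 for *Meis1* and 2.87 for *Meis2*. There was 1 riser (*Meis2*) from day 2 to day 4 and 1 gene that fell from day 2 to day 6. In D6PGCLCs 2 were higher and 3 lower than in EpiLCs, and 3 higher and 2 lower than in ESCs. From day 4 to 6 edgeR called 0 (2 at an unadjusted p under 0.05, 1 by DESeq2). The ParaHox and *Evx* genes, close relatives of *Hox* genes, comprised 8 genes, of which 4 were tested. *Cdx1*, an activator of *Hox* genes in the caudal embryo, fell from 29.8 CPM in ESCs to 0.594 in EpiLCs (log2 fold change −5.66) and reached 4.76 CPM in D6PGCLCs, 3.02 above EpiLCs and −2.64 from ESCs on the log2 scale. *Evx1*, which adjoins *Hoxa13*, fell by 4.11 and *Cdx2* by 1.80 in EpiLCs. These were the 3 that fell in EpiLCs, and on day 2 against EpiLCs 1 rose and 1 fell. The list had 1 higher from day 2 to 4, 1 higher and 1 lower from day 4 to 6 and 1 higher from day 2 to 6. In D6PGCLCs 1 was higher and 2 were lower than in EpiLCs, and 4 were lower than in ESCs.

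Of 20 polycomb genes, whose products silence *Hox* clusters, all were detected in every group. *Cbx8*, a reader of the H3K27me3 mark, fell by 1.82 on the log2 scale in EpiLCs. *Phf19*, an accessory factor of the methylating complex, went from 20.6 CPM in EpiLCs to 246.2 in D2PGCLCs (log2 fold change 3.58 ± 0.103, edgeR adjusted p = 1.42e-14) and was at 102.4 CPM in D6PGCLCs. *Ring1*, a histone ubiquitin ligase, rose by 2.03 in D2PGCLCs. The polycomb list had 2 higher and 4 lower genes in EpiLCs against ESCs, and 2 higher in D2PGCLCs against EpiLCs. It had 1 higher from day 2 to 4, 1 lower from day 4 to 6, and 2 higher and 1 lower from day 2 to 6. In D6PGCLCs 4 were higher than in EpiLCs, and 2 were higher and 2 lower than in ESCs. Of 10 trithorax and H3K27 demethylase genes, which oppose polycomb, edgeR called 0 in each of the 7 comparisons, with 3 to 8 at an unadjusted p under 0.05 and 0 by DESeq2. Among 17 retinoic acid genes (15 tested), *Crabp2*, which carries retinoic acid to its receptors, rose by 3.60 in EpiLCs and fell by 4.55 in D2PGCLCs. *Rxrg*, a receptor, was at least 29.2-fold higher in EpiLCs than in ESCs. Of the retinoic acid genes 6 rose and 2 fell in EpiLCs, 1 rose and 5 fell in D2PGCLCs against EpiLCs, 1 rose from day 2 to 4, and 3 rose and 1 fell from day 2 to 6. In D6PGCLCs 2 were higher and 2 lower than in EpiLCs, and 4 higher and 1 lower than in ESCs. From day 4 to 6 edgeR called 0 of them (5 at an unadjusted p under 0.05, 1 by DESeq2). Of 12 Wnt, Fgf and Gdf genes, the Wnt targets *Sp5* and *Axin2* fell by 6.51 and 3.05 in EpiLCs, from 36.3 and 139.6 CPM in ESCs, whose medium holds a GSK3 inhibitor. *Wnt8a* and *Fgf8*, ligands of the early caudal embryo, rose by 4.50 and 4.76 in EpiLCs and fell by 5.22 and 5.77 in D2PGCLCs. Of these signal genes 3 rose and 3 fell in EpiLCs, 1 rose and 4 fell in D2PGCLCs, 1 rose and 1 fell from day 4 to 6, and 2 rose from day 2 to 6. In D6PGCLCs 1 was higher and 4 were lower than in EpiLCs, and 2 were higher and 2 lower than in ESCs. From day 2 to 4 edgeR called 0 of them (2 at an unadjusted p under 0.05, 0 by DESeq2).

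Markers of the groups themselves were counted as well. Of 8 naive markers 7 were lower and 1 (*Prdm14*, a transgene) was higher in EpiLCs than in ESCs, *Tfcp2l1* falling from 684.7 to 22.5 CPM, and 6 were higher and 1 (*Klf4*) was lower in D2PGCLCs than in EpiLCs. All 6 EpiLC markers rose in EpiLCs, *Fgf5* to 58.5 CPM, and fell in D2PGCLCs. Of 8 PGC markers, some of them transgenes, 7 rose in D2PGCLCs, and *Dazl* went from 39.1 CPM on day 2 to 428.1 on day 6, while *Dnd1* and *Nanos3* were lower on day 6 than on day 2, calls lost without D6PGCLC replicate 1. Markers of other cells that express *Hox* genes were counted beside them. Of 10 caudal mesoderm and neuromesodermal markers, 1 rose and 4 fell in EpiLCs and 2 rose and 1 (*Nkx1-2*) fell from day 2 to 6, while 1 was higher and 6 were lower (4 without D6PGCLC replicate 1) in D6PGCLCs than in ESCs. Their sums were 94.6, 87.8 and 90.8 CPM in ESCs, led by *Nkx1-2* (42.0), and 5.66, 4.51 and 5.72 in EpiLCs. They were 4.75, 4.12 and 2.94 CPM in D2PGCLCs, 5.61, 8.62 and 6.39 in D4PGCLCs and 19.3, 23.5 and 14.0 in D6PGCLCs. In D6PGCLCs *Hand1* led (13.1 CPM, against 0.320 in ESCs), *Nkx1-2* was at 0.245 CPM, the defining marker *T* had 0, 2 and 1 counts (14.8 CPM in ESC samples and 0.248 in EpiLC samples), and *Msgn1* was at 0 in ESCs and D6PGCLCs. Of 10 fibroblast markers 4 rose in EpiLCs, 7 fell in D2PGCLCs and 3 rose from day 2 to 6. They summed to 12.1 to 13.8 CPM in ESCs, 29.9, 29.5 and 31.0 in EpiLCs, 3.59, 5.45 and 3.15 in D2PGCLCs, 5.61, 6.96 and 6.04 in D4PGCLCs and 8.67, 10.2 and 8.02 in D6PGCLCs. *Thy1* led in ESCs (5.80 CPM) and EpiLCs (12.8), and *Twist1* in D6PGCLCs (3.06), while *Col3a1*, *Dcn* and *Postn* were at 0 in ESCs and *Dcn* and *Lum* in D6PGCLCs. In EpiLCs *Dcn* had 180, 173 and 134 counts (5.83 CPM) and *Col3a1* 20, 35 and 12. Of 6 endoderm markers 3 rose from day 2 to 6, with sums of 5.40, 6.53 and 6.43 CPM in ESCs, 2.98, 3.06 and 3.08 in EpiLCs, 1.69, 1.76 and 1.50 on day 2, 4.52, 4.76 and 4.58 on day 4 and 9.58 to 18.0 on day 6, led there by *Gata6* (9.25). Of 6 trophoblast markers 3 rose from day 2 to 6, and they summed to 21.2, 24.1 and 24.2 CPM in ESCs, 18.2, 17.7 and 17.2 in EpiLCs, 28.5, 31.7 and 27.3 on day 2, 36.8, 45.1 and 38.5 on day 4 and 45.2, 48.6 and 40.2 on day 6, led by *Eomes* (14.2). Of 6 neural markers 2 rose in EpiLCs and 1 rose and 1 fell from day 2 to 6. Their sums were 83.0, 83.8 and 88.2 CPM in ESCs, 93.3, 73.4 and 70.5 in EpiLCs, 104.6, 84.9 and 120.6 on day 2, 79.2, 93.6 and 86.4 on day 4 and 27.8, 35.2 and 44.0 on day 6, led in every group by *Tubb3* (28.0 CPM on day 6), with *Neurog2* and *Olig2* at or below the floor. The part of such cells in the *Hox* levels was not tested.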

How the data were processed

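Raw counts per gene in 15 samples (3 in each of 5 groups) were used as deposited. The submitters' processing notes name Trim Galore, FastQC, STAR and the mm10 build, without versions, and the annotation was from ENSEMBL; the counting tool and its strand setting are not given in the sources used here. All 55536 gene IDs were matched to GENCODE M21. Genes passing filterByExpr (minimum count 10) in edgeR 4.0.16 (R 4.3.3) were fitted with TMM scaling and its quasi-likelihood test over all 15 samples, 1 coefficient per group, with Benjamini-Hochberg adjustment. Alternatives were DESeq2 1.42.0 and its size factors, no filter, no fold-change cutoff, only the 2 groups compared, a replicate block, other detection limits and leaving out each sample. The edgeR and DESeq2 tests were also run on simulated data with known changes. Genes with low counts were left out of that run, so it does not show how the tests behave for the scarcer *Hox* genes. *Hox* genes with a group mean of at least 1 CPM were described sample by sample, and from each other list up to 5 called genes with the largest change and a mean of at least 1 CPM could be named. A few genes are not reported here. The *Hox* genes and the lists (TALE, ParaHox, polycomb, trithorax, retinoic acid, Wnt, cell markers, noncoding and flanking genes) were chosen with earlier results of these data known.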

Additional observations from a re-analysis of the deposited data

How the results depend on the processing

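Over 55 calls of a *Hox* gene in a comparison, 41 held in every alternative that was fitted for them. Of 623 refitted values 571 kept their side of the threshold, 52 lost it and 0 reversed. Not every call was refitted with only the 2 groups compared, where 46 held and 4 were lost. With DESeq2 the number of *Hox* genes called was 1 from day 2 to day 4 and 6 from day 4 to day 6, and without the count filter 1 and 5, against 0 and 3. Fitting only the 2 groups compared left 1 from day 4 to day 6 (*Hoxd13*). The cause was not tested. Leaving out 1 sample at a time gave 16 to 18 calls in EpiLCs against ESCs, 5 to 6 in D2PGCLCs against EpiLCs, 0 to 1 from day 2 to 4, 1 to 3 from day 4 to 6, 8 to 10 from day 2 to 6, 10 to 11 in D6PGCLCs against EpiLCs and 8 to 10 against ESCs. Leaving out D6PGCLC replicate 1 from the fits of the other groups, chosen after seeing the data, gave 19, 6 and 0 calls in the first 3 of these. Genes detected depended on the limit by construction. At 1 count in every sample they were 14 in EpiLCs and 11 in D2PGCLCs, and at 10 counts 2, 3 and, in D4PGCLCs, 6. At a mean of 1 CPM they were 10 in ESCs, 0, 1 and 1 in EpiLCs, D2PGCLCs and D4PGCLCs, and 8 in D6PGCLCs. Leaving out a sample gave 18 to 20, 8 to 10, 8 to 8, 12 to 13 and 13 to 17 detected in the 5 groups. With the replicate number as a replicate block, 17, 6, 0, 3, 9, 10 and 11 genes were called; the deviations of same-numbered samples had a mean correlation of 0.0703 over 30 pairs, 8 above 0.1, and those of different numbers −0.0352 over 60 pairs, 4 above 0.1. Because the deviations are taken from group means, these mean correlations are not independent of each other. Since not every pair was above 0.1, the numbers were not taken to pair the samples. That rule cannot exclude a weaker pairing. Most *Hox* genes had under 30 counts per sample, which limits what these depths can resolve.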
